A study of Mus musculus with 16 samples.

Results

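The ADR label was examined on the 8 arrays whose labels give passage 2 primary mouse embryonic fibroblasts (MEFs, cells grown out of mouse embryos), out of 16 arrays in the study. ADR is Adriamycin, or doxorubicin, which traps topoisomerase II on DNA and leaves breaks, and BMP2 is bone morphogenetic protein 2, a secreted ligand. The 4 groups that carry the ADR label are ADR at 8 h, BMP2 with ADR at 8 h, ADR at 16 h and BMP2 with ADR at 16 h. Their partners without it are CTRL at 8 h, BMP2 at 8 h, CTRL at 16 h and BMP2 at 16 h. This gives 4 arrays against 4, in 4 pairs matched on time and on the BMP2 label. All 8 are labelled non-transformed, and they carry no allele other than what the labels call a control genotype. Each condition has 1 array, so no condition was repeated, and nothing states whether the cultures were separate. P-values therefore measure how far the 4 pairs disagree. The remaining 8 arrays are labelled as MEFs transformed with RasV12 and E1A, of Smad1f/f or Smad1-/- genotype.

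Doses are not settled. A title of the primary set gives 100 ng/ml BMP2, titles of the transformed set give 0.3 uM ADR, and the design text gives 50 ng/ml BMP2 with 1 ug/ml doxorubicin. On the 8 arrays between 40.1% and 43.8% of 24613 probes were detected. The number of arrays, not a read depth, limits the precision. Of 22 fibroblast markers, 21 had a probe and 10 were detected on any of the 8 arrays. The 6 detected on all 8 were Vim, Pdgfra, Pdgfrb, Fn1, Twist1 and Col5a1. The collagen genes Col1a1 and Col1a2, the surface glycoprotein gene Thy1 and the proteoglycan gene Dcn were undetected on all 8. The summed normalized signal of the fibroblast markers was 17250 to 23500 on arrays with the ADR label and 19490 to 23610 on arrays without it. Of 15 epithelial markers 6 were detected on any array, with a summed signal of 2045 to 3344 with ADR and 2261 to 4764 without it, and of 11 endothelial markers 3 were, with 477 to 1125 with ADR and 513 to 1389 without it. Their part in the results was not tested. In such bulk RNA, fewer cells of a type and less RNA per cell cannot be told apart.

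BMP ligands bind serine/threonine kinase receptors, which phosphorylate SMAD1 and SMAD5, and these enter the nucleus with SMAD4. There they raise genes such as Id1 and Id3, whose proteins bind and block basic helix-loop-helix transcription factors. DNA breaks stabilise p53, which raises Cdkn1a, an inhibitor of cyclin-dependent kinases, and Mdm2, the ubiquitin ligase that degrades p53. The comparison asked which of these programmes moved with the ADR label. On these arrays the levels go in part against that background. The BMP targets Id1 and Id3 were higher with the ADR label and not with the BMP2 label. Sct and Dlx2, also BMP targets, were higher in 4 of 4 pairs with either label, with mean BMP2 label differences of 1.02 and 1.35. Of 10 measured BMP targets, 3 were higher and 3 lower with the BMP2 label in 4 of 4 pairs. Over all genes and probes these shares were 18% and 22%, so the counts say little about the list. The 10 include Dlx3 and Msx2, which only ADR arrays detected. The p53 targets Cdkn1a and Mdm2 were higher with the BMP2 label and not with the ADR label. Whether the array labels name the agents that the cells received is therefore in doubt, and was not tested. Every ADR and BMP2 value here is a value of arrays so labelled.

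The BMP targets Sct and Id1 had the highest differences of the named genes that rose with the ADR label. No measured p53 target passed the test, where 0.222% of all genes and probes did. The 300-base promoters of Id3 and Sct, which rose, of Dlx2, a BMP target that did not pass, and of Cdkn1a, a p53 target, are shown first, so that the 2 kinds of target can be set side by side. The sequences are RefSeq's, on mouse build GRCm38.p6, from 250 bases before to 50 after the gene's start, and Id1 and Ndrg1 have no entry. In the first 3, capitals mark GGCGCC, the GC-rich element that SMAD1 and SMAD5 bind, and CAGAC or its reverse GTCTG, the SMAD-binding element. In Cdkn1a, capitals mark a pair of letter matches to the p53 half-site and the 12 bases between them. Only exact matches were marked, so capitals need not cover a known p53 site.
Id3, chr4:136143572-136143871, plus strand: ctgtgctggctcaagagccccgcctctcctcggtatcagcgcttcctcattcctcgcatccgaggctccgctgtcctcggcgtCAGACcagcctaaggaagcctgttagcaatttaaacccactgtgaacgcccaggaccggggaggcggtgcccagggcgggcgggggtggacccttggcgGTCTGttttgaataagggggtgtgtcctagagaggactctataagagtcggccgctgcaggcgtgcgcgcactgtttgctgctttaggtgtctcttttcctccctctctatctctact
Dlx2, chr2:71546705-71547004, minus strand: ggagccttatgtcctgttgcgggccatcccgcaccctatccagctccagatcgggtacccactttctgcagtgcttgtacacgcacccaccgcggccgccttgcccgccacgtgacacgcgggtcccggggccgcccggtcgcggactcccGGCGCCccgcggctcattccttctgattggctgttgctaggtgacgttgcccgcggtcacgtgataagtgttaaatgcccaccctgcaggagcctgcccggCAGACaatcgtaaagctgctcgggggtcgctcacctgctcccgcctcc
Sct, chr7:141279084-141279383, minus strand: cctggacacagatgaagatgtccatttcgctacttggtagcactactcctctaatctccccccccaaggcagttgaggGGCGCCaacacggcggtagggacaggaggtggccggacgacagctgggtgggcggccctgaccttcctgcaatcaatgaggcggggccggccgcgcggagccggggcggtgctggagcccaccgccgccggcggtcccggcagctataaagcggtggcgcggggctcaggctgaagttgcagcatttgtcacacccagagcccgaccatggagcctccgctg
Cdkn1a, chr17:29090729-29091028, plus strand: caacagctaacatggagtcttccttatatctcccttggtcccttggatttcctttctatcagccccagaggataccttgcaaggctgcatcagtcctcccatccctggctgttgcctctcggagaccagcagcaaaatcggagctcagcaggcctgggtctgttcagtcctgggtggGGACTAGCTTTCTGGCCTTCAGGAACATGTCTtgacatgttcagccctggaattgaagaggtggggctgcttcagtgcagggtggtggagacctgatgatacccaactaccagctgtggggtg

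The Id3 window held 2 matches to CAGAC or GTCTG and none to GGCGCC. The Dlx2 window held 1 of each, and the Sct window held 1 GGCGCC and no CAGAC or GTCTG. The Cdkn1a window shown and a second Cdkn1a window each held 1 CAGAC or GTCTG as well, at -93 and -135, not put in capitals above. Over all 32851 promoter windows, 49.6% held CAGAC or GTCTG and 11.9% held GGCGCC, so these matches are frequent. In the Cdkn1a window shown, the pair of half-site matches began 73 bases before that window's start site, at -73. Such a pair, with at most 13 bases between the half-sites, was in 24 windows (0.0731%). The second Cdkn1a window and the Mdm2 window had no such pair. ACGTG or CACGT, the core of the hypoxia response element, was in 19.6% of all windows, with 4 matches on both strands in Dlx2, in overlapping pairs, and none in Id3, Sct, Cdkn1a or Mdm2. A match is a description of letters and says nothing of binding.

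With the ADR label, 21 of 9457 genes and unnamed probes passed (adjusted p under 0.05, limma with a block for each pair, Benjamini-Hochberg over all), which is 0.222%. Of these, 19 were higher (0.201%) and 2 were lower (0.0211%). All differences are on the log2 scale of background-corrected, quantile-normalized signals. At an unadjusted p under 0.05 there were 880 (9.31%). Differences of at least 0.5 in size numbered 70 (0.740%) for the ADR label and 775 (8.19%) for the BMP2 label on the same 8 arrays. The 21 had 1 direction in all 4 pairs, and 3 of them are probes without a gene name. The count rests on all 4 pairs. Without either array of the 8 h pair, the 8 h BMP2 pair or the 16 h pair, 1 unnamed probe passed, and without either array of the 16 h BMP2 pair, Id1, Ltbp2, Spsb1 and that kind of probe, 4 in all, passed. The 21 kept their direction each time. The 19 higher and 2 lower became 36 and 16 without background correction, 40 and 23 in the authors' deposited table of log2 values, and 33 and 3 with median scaling.

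Values per array follow in the order 8 h, 8 h with BMP2, 16 h, 16 h with BMP2. Sct, which encodes the hormone secretin, had levels of 9.17, 9.82, 10.13 and 10.50 with the ADR label, against 7.01, 8.38, 7.58 and 9.28 without it. Each ADR array was above its partner, although the groups overlapped, because the BMP2 array at 16 h reached 9.28. The difference was 1.84 ± 0.21 (SE, n = 4 pairs), 3.58-fold, with a limma adjusted p of 0.031. It was the highest difference of all genes and probes tested.

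Id1 had levels of 8.95, 8.29, 8.63 and 7.78 with the ADR label, against 7.45, 7.10, 7.31 and 7.08 without it. The groups did not overlap, and the array with both labels at 16 h was the lowest of the ADR arrays. Id1 rose by 1.18 ± 0.13 (SE, n = 4 pairs), 2.26-fold, with a limma adjusted p of 0.029.

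Id3 had levels of 9.48, 9.08, 9.17 and 8.94 with the ADR label, against 8.66, 8.52, 8.21 and 8.25 without it. Again the groups were apart. Id3 rose by 0.76 ± 0.09 (SE, n = 4 pairs), 1.69-fold, with a limma adjusted p of 0.032. Its level with the BMP2 label was not higher, with a mean BMP2 label difference of -0.18, and that of Id1 was -0.52. With no detection filter, which tests more probes, the limma adjusted p was 0.076 for Sct and 0.063 for Id1 and Id3, and in 1 fit of all 16 arrays it was 0.35, 0.14 and 0.35 for Sct, Id1 and Id3.

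Dlx2, a homeobox transcription factor gene, had levels of 9.29, 10.32, 8.68 and 9.62 with the ADR label, against 8.21, 9.74, 7.01 and 8.90 without it. Every pair was higher with ADR, but the groups overlapped, since the BMP2 label went with higher levels as well (mean difference 1.35). The Dlx2 difference of 1.02 ± 0.17 (SE, n = 4 pairs) had a limma adjusted p of 0.097 and did not pass. Over the other normalizations, filters and fits that p ran between 0.00072 and 0.52. A second, dimmer probe of Dlx2 differed by 0.31 and was higher in 3 of 4 pairs.

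The BMP target list had 25 entries, of which 22 had a probe and 10 were measured (detected on at least 2 of the 8 arrays). Sct, Id1 and Id3 rose and none fell. The median difference of the 10 was 0.75, beside -0.0071 over all genes tested. In the single pairs the median was 1.02 at 8 h, 0.56 at 8 h with BMP2, 0.84 at 16 h and 0.40 at 16 h with BMP2. These medians, and the later medians and counts of the same 10, include Dlx3 and Msx2, which only ADR arrays detected. The 7 members detected on all 8 arrays had a median of 0.82. Of the 7 members detected on all 8 arrays, 7 were higher with ADR in 4 of 4 pairs, against 7.72% of all genes so detected. The list was chosen with earlier results of these data known, so this share is not independent support. With no detection filter, which brings in the probes of all 22, the median was 0.099. The summed level of the list was 4942 to 5384 on arrays with the ADR label and 2236 to 3328 on those without it.

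The other measured members are named after their values were seen. Gata2, a zinc finger transcription factor gene, had levels of 10.51, 10.71, 10.39 and 10.76 with the ADR label, against 9.23, 10.14, 9.56 and 10.16 without it. Its groups did not overlap, and the difference of 0.82 had a limma adjusted p of 0.070. Id2, a relative of Id1, differed by 0.74 with an adjusted p of 0.23, and the homeobox gene Msx1 by 0.39 with an adjusted p of 0.28. Dlx3 and Msx2, also homeobox genes, were detected on 3 ADR arrays and on 0 arrays without ADR, so they entered only through the group where they were brighter. Alpl, the bone type alkaline phosphatase gene, differed by 0.06 and was higher in 2 of 4 pairs. Smad7, an inhibitory SMAD gene that BMP signalling raises, was undetected on all 8 arrays, and Smad6 had no kept probe.

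**Figure D1:**
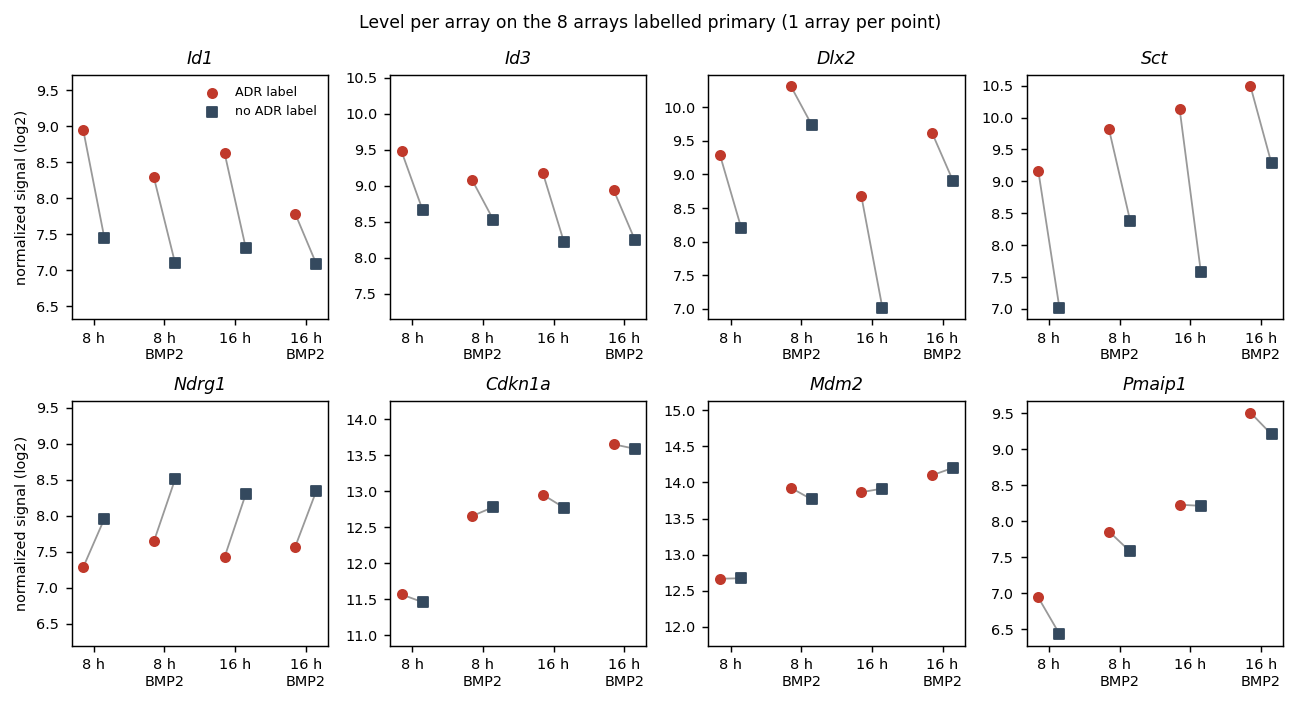
Level per array (log2 normalized signal, each panel on its own range) of BMP targets Id1, Id3, Dlx2 and Sct, of Ndrg1, and of p53 targets Cdkn1a, Mdm2 and Pmaip1. Circles are the 4 arrays with the ADR label and squares their partners without it; a line joins each pair. Id1 with the ADR label sits at 7.78 to 8.95, above 7.08 to 7.45 without it, while Cdkn1a moves with time and the BMP2 label.

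No member of the p53 target lists passed with the ADR label, where 0.222% of all genes and probes did. So small a share leaves few calls to lists of this size. Cdkn1a had levels of 11.57, 12.66, 12.95 and 13.65 with the ADR label, against 11.46, 12.78, 12.77 and 13.59 without it. The partners lay close to each other, and the levels were higher with BMP2 in each pair and at 16 h. The Cdkn1a difference was 0.06 ± 0.08 (SE, n = 4 pairs), with a 95% interval of -0.13 to 0.24 and a limma adjusted p of 0.89.

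Mdm2 had levels of 12.66, 13.93, 13.87 and 14.10 with the ADR label, against 12.67, 13.77, 13.92 and 14.20 without it. Its difference had a 95% interval of -0.18 to 0.18. The mean difference with the BMP2 label was 0.72 for Mdm2 and 0.98 for Cdkn1a, higher in 4 of 4 pairs for both.

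Pmaip1, which encodes the pro-apoptotic BH3 protein NOXA, had levels of 6.94, 7.86, 8.23 and 9.51 with the ADR label, against 6.43, 7.58, 8.22 and 9.21 without it. Its difference of 0.28 did not pass (limma adjusted p 0.44), and a second detected probe differed by -0.16. Ccng1, the cyclin G1 gene, differed by 0.06 with an interval of -0.14 to 0.26, and a second probe detected on all 8 arrays differed by -0.14. Gadd45a, a stress gene named for growth arrest and DNA damage, was lower in 4 of 4 pairs, by -0.29, and did not pass (limma adjusted p 0.30). Trp53 and Bax had no kept probe.

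The p53 arrest and feedback list had 14 of 17 members measured and a median of 0.067. The apoptosis list had 11 of 13 measured with a median of 0.0059, and the DNA repair and metabolism list 19 of 24 with a median of 0.012. None of these 44 entries passed in limma, where 0.222% of all genes and probes did. Of the 44, 7 had an unadjusted p under 0.05, 4 of them in the arrest list, beside 9.31% of all genes and probes. Of the arrest list, 3 were higher and 2 lower with ADR in 4 of 4 pairs, where 7.66% of all genes were higher and 10.1% lower. Gtse1, a p53 antagonist of G2 and S phase, was 0.35 higher, Plk3, a polo-like kinase gene, -0.30, and Ctsd, the cathepsin D gene, 0.38, none of them past the test. With the BMP2 label, 7 of the 14 arrest genes, 7 of the 11 apoptosis genes and 6 of the 19 repair and metabolism genes were higher in 4 of 4 pairs, where 18% of all genes were. Their median BMP2 label differences were 0.39, 0.28 and 0.25, and that of the BMP targets was -0.059.

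Proliferation and repair genes gave no call either, which at 0.222% of all genes and probes says little about lists of this size. The list of G1/S and replication genes had 25 measured members with a median of 0.019, and the G2/M and mitosis list 19 with a median of -0.011. DNA repair genes (20 measured, median 0.044) and histone cluster genes (20 measured, median -0.039) had none past the limma test, with 1 and 3 at an unadjusted p under 0.05. Within the G1/S list 1 member had such a p, and within the G2/M list 0 did, where 9.31% of all genes and probes had one. Ligands, receptors and SMADs of the BMP pathway itself (14 of 25 measured, median 0.057) also had none. Smad1 differed by 0.15 and Bmp4, a BMP ligand gene, by -0.21, neither past the test.

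**Figure D2:**
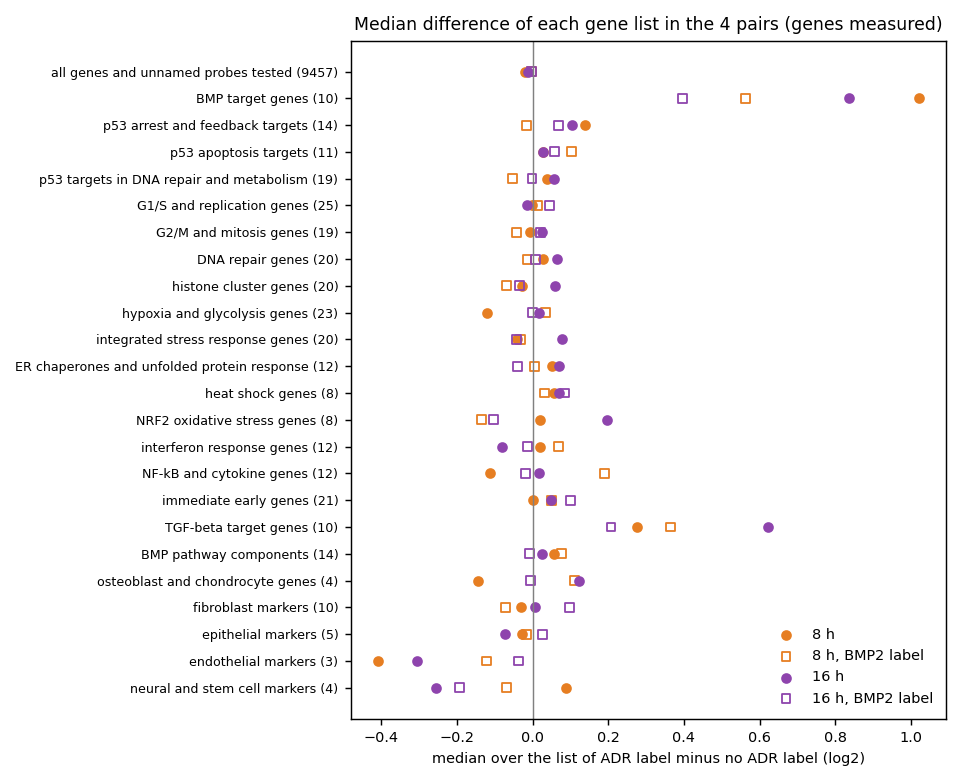
Median difference (ADR label minus no ADR label, log2) of each gene list in each of the 4 pairs, with the number of genes measured in brackets; circles are pairs without and squares pairs with the BMP2 label. BMP target genes lie at 0.40 to 1.02, TGF-beta target genes at 0.21 to 0.62, and the 3 p53 lists between -0.054 and 0.14. The BMP targets include Dlx3 and Msx2, which only ADR arrays detected.

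TGF-beta signals through related receptors and through SMAD2 and SMAD3. Of 18 TGF-beta target genes 10 were measured, with a median difference of 0.44. Ltbp2, a matrix protein related to the carriers of latent TGF-beta, had levels of 7.94, 7.37, 9.19 and 8.28 with the ADR label, against 6.44, 6.17, 8.04 and 7.49 without it. Each pair was apart while time moved both members, so the groups overlapped. Ltbp2 rose by 1.16 ± 0.12 (SE, n = 4 pairs), with a limma adjusted p of 0.024, and was the only member to pass. In all, 7 of the 10 were higher in 4 of 4 pairs, where 7.66% of all genes and probes were. Of the 7 detected on all 8 arrays 4 were, where 7.72% of all so detected were. This list too was chosen with earlier results of these data known, so these shares are not independent support.

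Other genes that rose have varied roles. Spsb1, an adaptor of a ubiquitin ligase, had levels of 8.08, 7.97, 7.98 and 7.98 with the ADR label, against 7.06, 6.87, 6.89 and 7.09 without it. Its values were nearly level within each group, and the rise of 1.02 ± 0.08 (SE, n = 4 pairs) had the smallest adjusted p of the named genes, 0.0074. Dusp2, a phosphatase of MAP kinases, had levels of 11.98, 11.18, 11.75 and 10.77 with the ADR label, against 10.31, 10.32, 10.45 and 10.02 without it. Its groups did not overlap, and Dusp2 rose by 1.14 ± 0.15 (SE, n = 4 pairs, limma adjusted p 0.042).

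Pdgfb, the gene of a platelet-derived growth factor chain, had levels of 8.35, 6.71, 8.10 and 5.79 with the ADR label, against 7.51, 5.87, 7.03 and 5.26 without it. The 2 labels went opposite ways here, with a rise of 0.82 for ADR (limma adjusted p 0.033) and a mean BMP2 label difference of -1.84. Irf5, an interferon regulatory factor gene, rose by 0.85 and the adhesion gene Igsf11, which was detected on 1 of the 4 arrays without ADR, by 0.86. Tnnt2, the cardiac troponin T gene, had levels of 5.85, 5.76, 5.42 and 5.55 with the ADR label, against 4.80, 4.84, 4.77 and 5.04 without it. It was undetected on the 4 arrays without ADR and entered the test only through the ADR arrays, so its place among the 19 (limma adjusted p 0.042) supports nothing, and its rise is only a bound of at least 1.24-fold. That bound sets the ADR mean against, per array, the lowest detected signal or the probe's own, whichever was higher. In the authors' deposited table of log2 values Tnnt2 differed by 0.32 and did not pass (limma adjusted p 0.054). Of the 12 muscle markers, 11 had a probe, 2 were measured (Tnnt2 and Actc1) and Tnnt2 alone passed. Their summed level was 73.6 to 101 with ADR and 62.4 to 66.8 without it. That sum includes Tnnt2, so it supports nothing either.

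Outside the rule for named genes, the other 6 that rose are given after their values were seen. They are the pyrophosphate transport gene Ank (0.73), the sphingosine kinase gene Sphk1 (0.71), the stress gene Gadd45g (0.70), Ier5l (0.70), the calcium pump gene Atp2a1 (0.69) and the Notch target Hes1 (0.60). Atp2a1 was detected on 2 of the 4 arrays without ADR, and the other 5 on all 4. For Sphk1, 2 further probes were detected on at most 1 array.

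**Figure D3:**
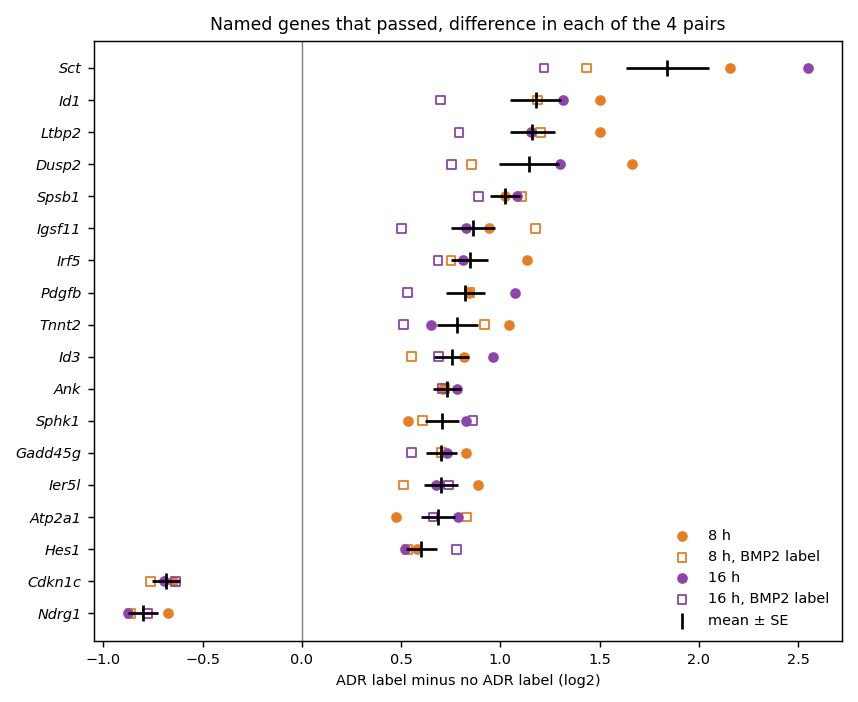
Difference in each pair (ADR label minus no ADR label, log2) for the 18 named genes that passed, with the mean and its SE in black. Circles are pairs without and squares pairs with the BMP2 label, orange at 8 h and purple at 16 h. Sct spans 1.22 to 2.55 and Spsb1 0.89 to 1.11; Ndrg1 and Cdkn1c are below 0 in all 4 pairs.

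Only 2 named genes fell. Ndrg1, a gene raised by hypoxia and by cell stress, had levels of 7.28, 7.64, 7.42 and 7.57 with the ADR label, against 7.96, 8.51, 8.30 and 8.35 without it. The groups did not overlap. Ndrg1 fell by 0.80 ± 0.07 (SE, n = 4 pairs; limma adjusted p 0.023), and a second probe differed by -0.75. Cdkn1c, which encodes the cyclin-dependent kinase inhibitor p57, had levels of 12.43, 10.58, 12.46 and 10.63 with the ADR label, against 13.08, 11.35, 13.16 and 11.26 without it. It was lower with either label, and fell by 0.69 ± 0.07 with ADR (SE, n = 4 pairs; limma adjusted p 0.028), beside a mean BMP2 label difference of -1.83.

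Ndrg1 was the only 1 of 23 measured hypoxia and glycolysis genes to pass, and their median was 0.019. Hk2, the hexokinase 2 gene, was -0.65 lower with a limma adjusted p of 0.097, while Vegfa, a growth factor gene raised by hypoxia, differed by 0.11 and was higher in 3 of 4 pairs. Both are named after their values were seen. Sbsn and Selenoo, next by p-value among the lower genes, differed by -0.58 and -0.51 and did not pass (limma adjusted p 0.054 and 0.070).

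The ADR label was then read with and without the BMP2 label, 2 arrays against 2, with the spread of a fit over the 8 arrays. Without BMP2, 11 genes and probes passed (0.116%), 10 higher (0.106%) and 1 lower (0.0106%), and 845 had an unadjusted p under 0.05 (8.94%). Sct rose by 2.35 ± 0.13 (limma adjusted p 0.0015), Id1 by 1.41 ± 0.14 (0.026), Dlx2 by 1.38 ± 0.15 (0.047) and Ltbp2 by 1.33 ± 0.16 (0.047). Id3, at 0.89, had an adjusted p of 0.054. Of the BMP targets 4 of 10 passed, all higher, with a median of 0.96, and the 10 include Dlx3 and Msx2. Timp1, an inhibitor of matrix metalloproteinases, fell by 0.83 ± 0.10 (limma adjusted p 0.047). No p53 target passed in limma. Leaving out any 1 of the 8 arrays left 1 to 3 calls. They were 3 without BMP2 at 8 h or 16 h or CTRL at 16 h, and 1 without any of the others.

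With BMP2 on both sides, 2 passed (0.0211%), both higher, and 580 had an unadjusted p under 0.05 (6.13%). Sct rose by 1.33 ± 0.13 (limma adjusted p 0.048), and the median of the BMP targets was 0.52. Id1 differed by 0.94 and Dlx2 by 0.66, with limma adjusted p of 0.25 and 0.46. Leaving out any 1 of the 8 arrays left 0 calls, with 464 to 603 at an unadjusted p under 0.05.

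The difference between these responses was tested directly. No gene passed for ADR by BMP2 in limma, with 576 at an unadjusted p under 0.05 (6.09%). Sct differed by -1.03 ± 0.18 between pairs with and without BMP2 (limma adjusted p 0.78), Dlx2 by -0.73, Id1 by -0.47 and Id3 by -0.27. The median over the BMP targets was -0.47, beside 0.012 over all genes. Rab3ip, an exchange factor for Rab8, had the smallest p (1.23 ± 0.15, limma adjusted p 0.42). For ADR by time, 16 h minus 8 h, no gene passed in limma and 462 had an unadjusted p under 0.05 (4.89%). Id1 differed there by -0.34 and Sct by 0.09, both with limma adjusted p near 1.00.

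Arrays labelled ADR alone were next set against arrays labelled BMP2 alone, 2 against 2. In this contrast 871 passed (9.21%), 355 higher with ADR (3.75%) and 516 lower (5.46%). Of the 10 BMP targets 6 were higher with ADR than with BMP2 and none lower, with a median of 0.79. The 10 include Dlx3 and Msx2, which entered only through ADR arrays, so this count is not independent support. Id1 differed by 1.70 ± 0.14 (limma adjusted p 0.00056), Id3 by 0.94 ± 0.11 (0.0032) and Sct by 0.82 ± 0.13 (0.0091). Dlx2 had a difference of -0.33 and did not pass (limma adjusted p 0.23).

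Of the 44 p53 list entries 0 were higher and 9 lower with ADR than with BMP2. Cdkn1a was lower by -0.93 ± 0.16 and Pmaip1 by -0.81 ± 0.14 (limma adjusted p 0.012 for both), while Mdm2, at -0.72, did not pass (0.14). Ndrg1 was lower too, by -1.07 ± 0.14 (limma adjusted p 0.0043). Among the highest was Pdgfb (2.67), which was detected on both ADR arrays and on 1 of the 2 BMP2 arrays. The TGF-beta co-receptor gene Eng, the growth factor gene Mdk, Fgf13 and Pcbd1 were detected on both ADR arrays and on neither BMP2 array. They were thus at least 4.86-fold, 2.90-fold, 2.65-fold and 3.58-fold higher with ADR than with BMP2, by the same kind of bound as for Tnnt2. Their ADR label differences over 4 pairs were only 0.20, -0.06, -0.004 and -0.17, beside BMP2 label differences of -2.29, -2.26, -2.03 and -2.16. The latter are not exact, because the BMP2 arrays did not detect these genes. The lowest differences were those of the small heat shock protein gene Cryab (-4.09), Gask1b (-3.38), Gpnmb (-3.32), Hoxc6 (-3.24) and Homer2 (-3.07). Cryab had levels of 5.25 and 5.69 on the ADR arrays, against 9.59 and 9.53 on the BMP2 arrays, and CTRL arrays had 5.43 and 5.93. For Cryab the ADR arrays were thus near CTRL. From Cryab to Homer2, ADR label differences over 4 pairs lay between -0.26 and -0.06, and BMP2 label differences between 2.81 and 3.99. The count was 273 without BMP2 at 8 h, 311 without ADR at 8 h, 331 without BMP2 at 16 h and 323 without ADR at 16 h.

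**Figure D4:**
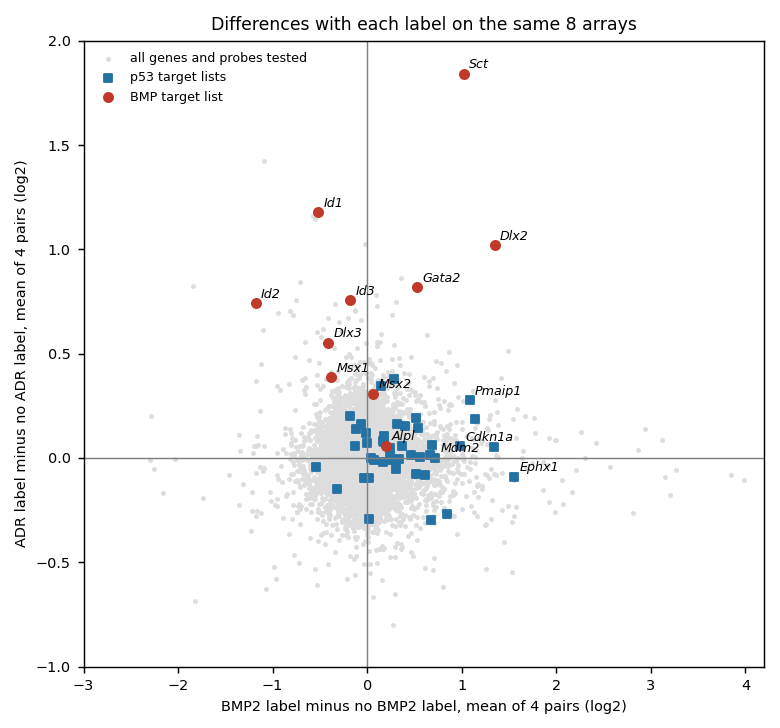
Mean difference over 4 pairs with the ADR label (vertical, log2) against that with the BMP2 label (horizontal, log2) on the same 8 arrays, for all genes and probes tested (grey), the 3 p53 target lists (blue squares) and the BMP target list (red circles). BMP targets lie at 0.06 to 1.84 on the vertical axis, and Cdkn1a and Mdm2 at 0.98 and 0.72 on the horizontal axis and near 0 on the vertical one.

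Lastly the ADR label difference was compared with that on the arrays labelled transformed, whose 4 pairs are of Smad1f/f and Smad1-/- cells. In those pairs ADR was given for 12 h, and their CTRL arrays are labelled 0 h, so time differs too in the pairs without BMP2. In a limma fit of all 16 arrays 24 of 10982 genes and probes differed (0.219%), 18 higher (0.164%) and 6 lower (0.0546%) on primary minus transformed. Ndrg1 is among them: its ADR difference was -0.80 on the primary arrays, with 0 of 4 pairs higher, and 0.50 on the transformed arrays, with 4 of 4 higher. That is a difference of -1.30 ± 0.13 (limma adjusted p 0.0086). Tnnt2 passed too, but it was not above background on the 4 primary arrays without ADR, so its difference there is only a bound.

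Ndc80, a kinetochore gene, differed with ADR by 0.23 on primary arrays and -0.94 on transformed arrays (limma adjusted p 0.0095). Id1, at 1.18 on primary arrays and 0.05 on transformed arrays, did not pass that test (1.12 ± 0.30, limma adjusted p 0.13), nor did Id3 (0.94, 0.13), Dlx2 (1.22, 0.16), Sct (0.63, 0.62) or Cdkn1a (-0.19, 0.68). For Id1 the single transformed pairs were -0.91 (Smad1f/f) and 0.16 (Smad1-/-) without BMP2, and 0.42 and 0.55 with it. On transformed arrays the medians with ADR were -0.62 for G1/S genes, -0.55 for G2/M genes, 0.29 for p53 arrest genes and 0.010 for BMP targets. These pool pairs without and with BMP2, which can differ. Without BMP2, Cdkn1a differed by -0.09 and -0.24, Mdm2 by -0.09 and 0.01, and Sct by -0.23 and 0.16. With BMP2 on both sides they differed by 0.57 and 0.73, 1.05 and 0.85, and 2.10 and 2.81. Gadd45a went the other way, with 1.01 and 0.81 without BMP2 and 0.11 and 0.14 with it. The count of 24 was 2 without either array of the primary 8 h pair, 3 without the 8 h BMP2 pair, 0 without the 16 h pair (1503 at an unadjusted p under 0.05) and 7 without the 16 h BMP2 pair. Without a transformed pair it was 9 (Smad1f/f with BMP2), 15 (Smad1-/- with BMP2) or 84 (Smad1-/- without BMP2).

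**Figure D5:**
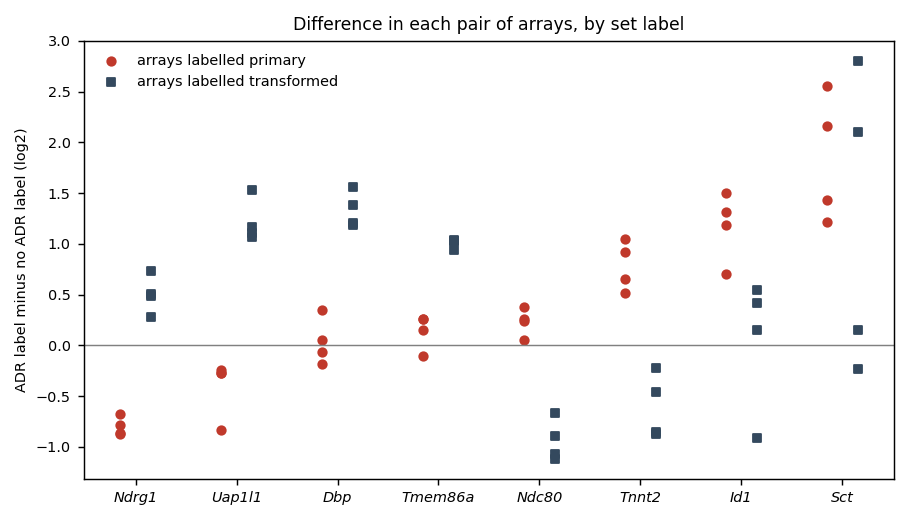
ADR label minus no ADR label (log2) in each of 4 pairs labelled primary (circles, left) and 4 pairs labelled transformed (squares, right), for genes whose difference passed between the sets and for Id1 and Sct, which did not. Ndrg1 is below 0 in the 4 primary pairs and above 0 in the 4 transformed pairs; Uap1l1 also takes opposite sides, as does Tnnt2, which was not above background on the 4 primary arrays without ADR.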

How the data were processed

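Total RNA was hybridised to Illumina BeadChip arrays, and the authors exported bead intensity per probe with GenomeStudio 2011.1, per the submitters' processing notes. The deposited intensity is linear, without background subtraction. The deposited detection p-value columns hold 1 minus the p-value and were turned round. The deposited signals of the Smad1-/- BMP2 array (transformed set) repeat another array's, so they were recovered from the authors' deposited log2 values, which are centred per array and probe and served as an alternative.

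Of 24613 probes, 20984 named 1 gene in the platform table, 1 several and 3628 none. All 16 arrays were normalized with neqc (offset 16, limma 3.58.1, R 4.3.3), which makes folds of dim probes too small. The filter asked for detection at p under 0.05 on 2 or more of the arrays fitted, and each gene took its brightest such probe, leaving 8114 genes and 1343 unnamed probes. The ADR label was fitted with pair blocks, which left 3 residual degrees of freedom; the contrasts of agents used time and agent as terms. Fits were tested on simulated data.

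The text names, in each direction, the 10 most changed genes that passed with 1 sign in 4 pairs (where there were fewer, all of them, and the 5 of that direction with the smallest p), 14 fixed genes of which 10 had a kept probe, up to 4 members per list, and the 5 highest and 5 lowest of each other contrast. Members and the 25 gene lists were chosen with earlier results of these data known. Python 3.11.15 drew the figures.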

Additional observations from a re-analysis of the deposited data

Results flagged for a closer look

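The ADR label difference on arrays labelled primary and on arrays labelled transformed differed for 24 genes and probes in the limma test of the difference. The named ones are given as primary minus transformed on the log2 scale. Mmp3 (1.67), Tnnt2 (1.38), Sprr2k (1.32), Ndc80 (1.17) and Ppbp (1.14) were higher. Tnnt2 was undetected on the 4 primary arrays without ADR, so its value is not exact. Mmp3, Sprr2k and Ppbp were undetected on the 8 primary arrays, and their differences of -1.64, -1.20 and -1.21 on transformed arrays, where 8 of 8 detected them, make up these values. Uap1l1 (-1.62), Ndrg1 (-1.30), Dbp (-1.30) and Tmem86a (-0.86) were lower. Uap1l1 differed by -0.40 on primary arrays and by 1.22 on transformed arrays, with 0 and 4 of 4 pairs higher. For Dbp the values were 0.04 and 1.33, and for Tmem86a 0.14 and 1.01.

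Ccng1 was higher with ADR in both pairs without BMP2 and lower in both pairs with it, a difference of -0.23 that did not pass the limma test (adjusted p 0.95). A second Ccng1 probe, also detected on all 8 arrays, does not show this: at 16 h without BMP2 it had 10.77 with ADR, against 11.02 without it.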

How the results depend on the processing

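The 21 genes and probes of the ADR label became 52 without background correction, 36 with median scaling, 63 in the authors' log2 values, 5 with no detection filter, 66 with a robust variance trend, 35 with additive labels, 9 in 1 fit of all 16 arrays and 6 at a log2 change of at least 1. The 21 kept their sign under the first 6 of these. Without 1 array, the count ran from 1 to 4. Without BMP2, the 11 became 43 without background correction, 46 in the authors' log2 values and 21 with detection on every array, and 1 to 3 without 1 array. With BMP2, the 2 became 15 and 17 under the first pair of settings, and 0 to 0 without 1 array. ADR minus BMP2 gave 273 to 769 without 1 array. Primary minus transformed gave 87 without background correction, 194 in the authors' log2 values, and 0 to 84 without 1 array. The cause was not tested.

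In 1 fit of all 16 arrays Cdkn1c, Irf5, Igsf11 and Tnnt2 had adjusted p of 0.29, 0.36, 0.66 and 0.086, and with no detection filter Ltbp2, Dusp2, Igsf11, Irf5, Pdgfb and Tnnt2 lay between 0.061 and 0.10. Igsf11 had 0.059 with time and agent as terms in place of pairs, and Tnnt2 0.055 with the primary arrays normalized alone. Sign changes were of values near 0. Mdm2 was -0.00577 with the primary arrays normalized alone and -0.014 in the authors' log2 values, where Bbc3 was -0.028. Without 1 array, Mdm2 ran from -0.054 to 0.0349, Ccng1 from -0.0149 to 0.106, Rfc3 from -0.000295 to 0.211 and Eda2r from -0.0429 to 0.327. No paired analysis was possible by replicate number because every array has number 1. A slide block was not run, since the files name no slide. Dropping 1 array drops its pair from the ADR label fit.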
